A study of Mus musculus with 24 samples.

Results

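A set of 10 genes of electrophile and peroxide defence was followed across mouse livers that lack the autophagy gene Atg5, the mTORC1 inhibitor gene Tsc1, or both, and across livers with a further loss of p62 or Nrf2. They are the quinone reductase gene Nqo1, the carbonyl reductase genes Cbr1 and Cbr3, the aldo-keto reductase genes Akr1b8 and Akr1b7, the epoxide hydrolase gene Ephx1, the thioredoxin system genes Txnrd1, Txn1 and Srxn1, and the haem oxygenase gene Hmox1. The members were chosen by symbol, and each of the 10 matched 1 of the 33019 gene identifiers in the count table. They were chosen with earlier results of these data known. Their counts and medians beside those of all genes are therefore descriptions, not an independent test of the set. All 10 passed the filter on low counts.

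Quinone and carbonyl reductases use NADPH or NADH to reduce reactive quinones, aldehydes and ketones before they attack protein and DNA, and microsomal epoxide hydrolase opens epoxides to diols. Thioredoxin reductase keeps thioredoxin reduced, thioredoxin passes the electrons on to peroxiredoxins and other proteins, and sulfiredoxin rescues peroxiredoxins that were overoxidised. The transcription factor NRF2, encoded by Nfe2l2, binds antioxidant response elements and is known to act on many of these genes. It is held down by KEAP1, and p62, the autophagy receptor encoded by Sqstm1, binds KEAP1 and accumulates as protein when autophagy is blocked.

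RNA was measured in 24 libraries from livers of C57BL/6J mice aged 2 months, 4 libraries for each of 6 genotypes. The labels give a hepatic knockout of Atg5 (Atg5 KO), a hepatic knockout of Tsc1 (TSC1 KO), both together (DKO), both with p62 also lost (p62 TKO), both with Nrf2 also lost (Nrf2 TKO), and wild type (WT). The 2 triple knockouts therefore carry the Atg5 and Tsc1 losses of DKO. The labels name neither the Cre driver nor sex, and they are silent on whether the 4 libraries of a genotype are 4 animals, so the p-values reflect variation among these libraries, some of which may be technical. The series title names the ductular reaction and tumorigenesis in livers with active mTORC1 and defective autophagy as the subject of the study.

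Levels are in CPM, a gene's share of its library's counts, on totals scaled by TMM, and levels of different genes are compared only per exon length (RPKM). A gene is called higher or lower in a comparison where its Benjamini-Hochberg adjusted p over 15851 tested genes is under 0.05 in edgeR's quasi-likelihood test. Log2 fold changes are given with their standard error, the first-named genotype over the second. Total counts ran from 10494080 to 13057467 per library. The TMM factors ran from 1.49 to 1.56 in DKO and from 0.717 to 0.813 in WT, so the choice of scaling bears on every DKO value. With total counts alone the median of all genes in DKO versus WT was 1.07 on the log2 scale, against 0.08 with TMM, and the values of the 10 genes lay 0.97 to 1 higher. Directions below are relative to the TMM-scaled totals, and changes with total counts alone are given beside the counts of calls or beside the gene.

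The targeted genes were read first. Nfe2l2 stood at 8.69 to 17.7 CPM in Nrf2 TKO, against 92.8 to 162 CPM in DKO (log2 fold change -3.26 ± 0.21, adjusted p = 8.3e-11). Sqstm1 had 249, 439, 363 and 774 CPM in p62 TKO, against 1000, 1050, 1060 and 729 CPM in DKO (-1.07 ± 0.25, adjusted p = 0.0015). WT had 556, 558, 691 and 508 CPM. Sqstm1 was called higher in DKO than in WT and was not called in p62 TKO versus WT. The library labelled p62 TKO replicate 4, at 774 CPM, lay within the DKO range, and results on p62 TKO are therefore given with and without it, under the name p62 TKO replicate 4 that its label gives. Atg5 averaged 43.0 ± 4.27 CPM in Atg5 KO and 26.8 ± 3.75 CPM in WT, and Tsc1 averaged 31.0 ± 1.99 CPM in TSC1 KO and 35.1 ± 1.53 CPM in WT (SD, n = 4 each). Which exons were deleted is not stated in the labels, so counts over the whole gene do not check those 2 labels. Hepatocyte markers fell in DKO versus WT for 10 of 10 genes, with summed levels of 14300 to 19600 CPM in DKO and 103000 to 118000 CPM in WT. Cholangiocyte markers rose for 10 of 10, with sums of 6900 to 10200 CPM in DKO and 79.4 to 118 CPM in WT. Of all genes, 32.3% were called lower and 37.1% higher there. With total counts alone the hepatocyte marker Apoa1 lost its call (-0.37, adjusted p = 0.054), and the other markers of both lists kept theirs. The marker Spp1 made up most of the cholangiocyte sums in every genotype. In such bulk RNA, fewer cells of a type and less RNA per cell cannot be told apart, and the part of these marker changes in the results below was not tested.

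The members lie on 7 autosomes of GRCm38. Nqo1 (ENSMUSG00000003849) spans 107388225 to 107403206 and Hmox1 (ENSMUSG00000005413) 75093621 to 75100589 on chromosome 8. Cbr1 (ENSMUSG00000051483, 93605853 to 93610505) and Cbr3 (ENSMUSG00000022947, 93683215 to 93690990) are neighbours on chromosome 16, 72709 bases apart. Akr1b8 (ENSMUSG00000029762, 34354119 to 34368463) and Akr1b7 (ENSMUSG00000052131, 34412334 to 34423142) stand 43870 bases apart on chromosome 6. Ephx1 (ENSMUSG00000038776) lies on chromosome 1 from 180976210 to 181020904 and Srxn1 (ENSMUSG00000032802) on chromosome 2 from 152105516 to 152111376. Txn1 (ENSMUSG00000028367) lies on chromosome 4 from 57943373 to 57956411 and Txnrd1 (ENSMUSG00000020250) on chromosome 10 from 82833951 to 82897712. Shared reads are a small matter for most of them. Of all windows of 75 bases, the read length, in the annotated transcripts of each gene, 6 of 1423 of Akr1b8 (0.422%) also occurred in Akr1b10 and 7 of 1878 of Ephx1 (0.373%) in the overlapping pseudogene Gm36961, and none of the other 8 genes' windows occurred elsewhere. Akr1b7 overlaps the pseudogene Gm13857 on the opposite strand over 348 of its 1281 exon bases, and since the labels do not say whether reads were counted by strand, its counts may include reads of that gene, which itself had 19 counts in all libraries against 824 for Akr1b7.

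Promoter windows of 300 bases, 250 before to 50 after the start, were available from RefSeq (GRCm38.p6) for 9 of the 10 genes, in 11 windows, 3 of them of Txnrd1. They were searched on both strands for the core letters of the antioxidant response element, TGACNNNGC and TGAGNNNGC, and for the AP-1 letters TGANTCA. A core was found in the windows of Srxn1 and Akr1b7 and in 1 of the 3 of Txnrd1. Of all 32817 promoter windows 12.4% held TGACNNNGC, 17.7% held TGAGNNNGC, 27.8% held either core and 7.81% held the AP-1 letters. The windows of Srxn1 and Txnrd1 are shown because both genes were called lower in Nrf2 TKO than in DKO and hold a core, and that of Cbr3 because this gene had the largest fold changes of the 10 and its window holds none. Capitals mark each match as it reads on the gene's own strand.
Srxn1, chr2:152105274-152105573, plus strand: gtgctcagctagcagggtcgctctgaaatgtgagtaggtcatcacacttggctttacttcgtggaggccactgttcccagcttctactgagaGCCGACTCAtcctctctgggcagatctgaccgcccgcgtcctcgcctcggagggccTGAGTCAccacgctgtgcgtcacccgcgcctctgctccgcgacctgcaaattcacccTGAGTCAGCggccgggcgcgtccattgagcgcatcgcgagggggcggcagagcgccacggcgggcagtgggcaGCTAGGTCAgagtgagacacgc
Txnrd1, chr10:82858956-82859255, plus strand: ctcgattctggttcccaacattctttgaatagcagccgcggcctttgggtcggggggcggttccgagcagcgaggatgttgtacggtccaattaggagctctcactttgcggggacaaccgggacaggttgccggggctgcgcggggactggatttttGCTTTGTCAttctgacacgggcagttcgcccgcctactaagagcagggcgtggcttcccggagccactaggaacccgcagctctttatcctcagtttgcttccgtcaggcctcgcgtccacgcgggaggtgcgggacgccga
Cbr3, chr16:93682969-93683268, plus strand: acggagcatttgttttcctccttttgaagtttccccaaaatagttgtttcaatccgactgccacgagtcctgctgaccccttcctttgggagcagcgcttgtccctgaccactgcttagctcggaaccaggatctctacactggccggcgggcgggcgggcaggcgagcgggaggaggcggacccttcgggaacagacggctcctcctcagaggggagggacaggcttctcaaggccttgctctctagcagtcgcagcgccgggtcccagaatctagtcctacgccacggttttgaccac
In the Srxn1 window TGAGNNNGC began 158 bases before the start on the opposite strand and 45 bases before it on the gene's strand. The site 45 bases before the start overlaps an AP-1 match at the same position, a further AP-1 match began 102 bases before the start, and TGACNNNGC lay 28 bases after the start on the opposite strand. In the Txnrd1 window TGACNNNGC began 92 bases before the start on the opposite strand. In the Akr1b7 window TGAGNNNGC lay 19 bases after the start. A match describes the letters only, and a window with none says nothing of sites elsewhere.

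Across the set, Nqo1, Cbr1, Cbr3 and Srxn1 were high where Atg5 was lost and Nrf2 was not. The other members showed this pattern less clearly or not at all. In Atg5 KO versus WT 8 of 10 were called higher and 0 lower, where 18.6% of all tested genes were called higher and 11.3% lower. The median log2 fold change of the members was 2.17, and that of all genes -0.00. Total counts alone called 10 of 10 higher, with Txn1 (0.83, adjusted p = 0.0072) and Hmox1 (0.96, adjusted p = 0.034) gained. In DKO versus WT 6 were called higher and 1 lower, against 37.1% and 32.3% of all genes, with medians of 2.23 for the members and 0.08 for all genes. With total counts alone the DKO counts were 9 higher and 0 lower. Ephx1, Txnrd1 and Hmox1 gained a call there and Txn1 lost its own. TSC1 KO versus WT gave 0 calls in either direction with edgeR and 0 with DESeq2, where 8.79% of all genes were called higher and 7.6% lower. Only Txnrd1, lower, had an unadjusted p under 0.05 there, and a fit of those 2 genotypes alone called 4 members. Set against TSC1 KO, DKO had 7 members higher and 1 lower (36.6% and 30.0% of all genes). With total counts alone it had 9 higher and 0 lower, since Ephx1 (1.02, adjusted p = 0.00028) and Hmox1 (0.91, adjusted p = 0.019) gained a call and Txn1 lost its own.

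The 2 triple knockouts differed in these genes. Nrf2 TKO versus DKO had 0 members higher and 7 lower, against 26.7% and 29.2% of all genes, and the members' median was -1.77 while that of all genes was -0.05. Total counts alone gave 0 higher and 8 lower, with Akr1b7 gained. In p62 TKO versus DKO 3 members were higher and 1 lower, against 22.3% and 21.5% of all genes, with medians of 0.14 and -0.02. Leaving out p62 TKO replicate 4 gave 3 higher and 2 lower, and total counts alone gave 1 higher and 2 lower. Both comparisons share the DKO libraries. Set directly against each other, p62 TKO had 8 members higher than Nrf2 TKO and 0 lower, where 10.4% of all genes were higher and 7.11% lower, and without p62 TKO replicate 4 it had 6 higher and 0 lower. Total counts alone gave 9 and 0, with Txn1 gained (0.74, adjusted p = 0.024). Relative to WT, p62 TKO had 8 members higher and 0 lower (28.0% and 22.9% of all genes), a count that was 8 and 0 without replicate 4 as well and 10 and 0 with total counts alone, with Txnrd1 and Txn1 gained. Nrf2 TKO had 1 higher and 1 lower than WT (22.4% and 17.1% of all genes). DESeq2 and total counts alone each called 4 higher and 1 lower in that last comparison, and with total counts the gained calls were Cbr3 (1.78, adjusted p = 0.037), Akr1b7 (3.03, adjusted p = 0.024) and Hmox1 (1.11, adjusted p = 0.014). Across all genes, 44.4 to 62.1% of calls were higher with TMM over the 11 comparisons. With total counts alone 74.7 to 94.2% of calls were higher in 9 comparisons, and 17.7% in p62 TKO versus DKO and 16.1% in Nrf2 TKO versus DKO.

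**Figure D1:**
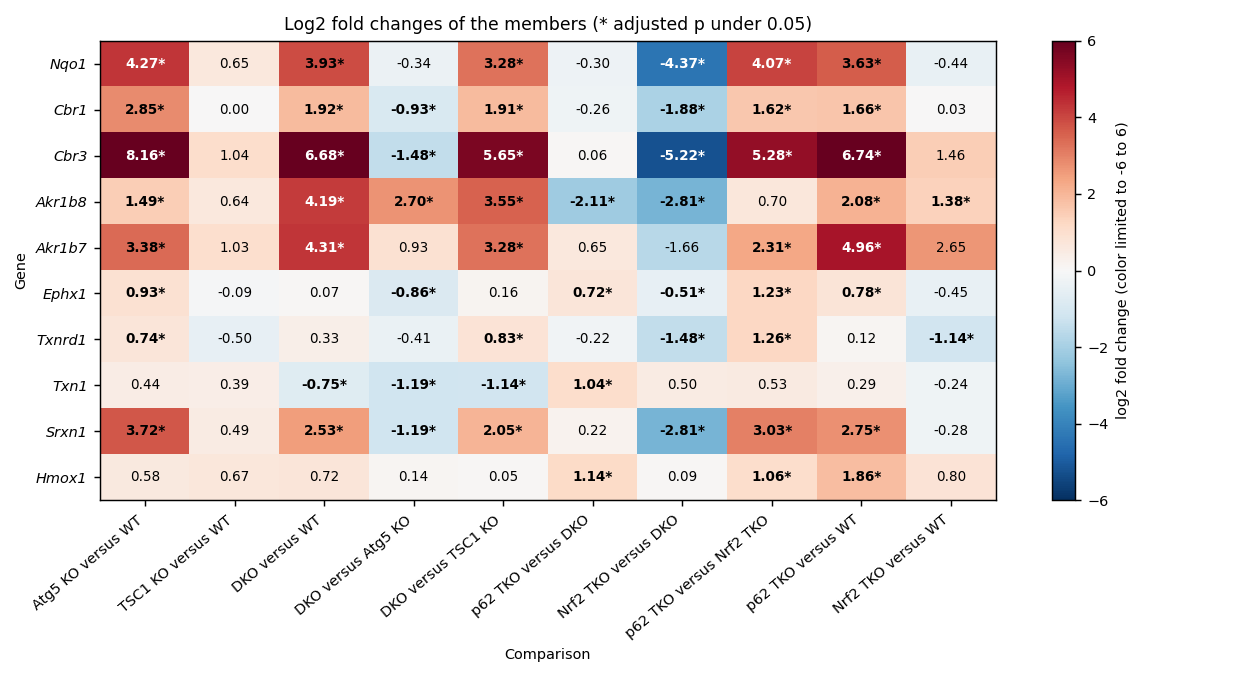
Log2 fold changes of the 10 genes (rows) in 10 comparisons of genotypes (columns), colored from blue (lower) to red (higher), with an asterisk and bold type where the adjusted p was under 0.05. The column of Nrf2 TKO versus DKO holds 7 called decreases, the column of TSC1 KO versus WT holds no call, and Cbr3 reaches 8.16 in Atg5 KO versus WT.

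NQO1 reduces quinones directly to hydroquinones and so bypasses the reactive semiquinone. Nqo1 had 114, 49.2, 140 and 105 CPM in Atg5 KO, 6.89, 8.25, 8.5 and 9.36 CPM in TSC1 KO, and 79.2, 105, 80.7 and 57.4 CPM in DKO. It had 42.5, 49.6, 40 and 129 CPM in p62 TKO, 4.95, 6.1, 2.23 and 2.03 CPM in Nrf2 TKO and 5.45, 5.08, 4.87 and 5.72 CPM in WT. Every Atg5 KO, DKO and p62 TKO library stood above every TSC1 KO, Nrf2 TKO and WT library. Nqo1 rose in Atg5 KO versus WT (4.27 ± 0.42, adjusted p = 4.3e-07) and in DKO versus WT (3.93 ± 0.41, adjusted p = 3.5e-08). Nrf2 TKO was 20.7-fold lower than DKO (-4.37 ± 0.42, adjusted p = 3e-08) and did not pass the test against WT (-0.44 ± 0.44, 95% interval -1.3 to 0.42, adjusted p = 0.45). In p62 TKO versus DKO the value was -0.30 ± 0.34 (adjusted p = 0.5), and without p62 TKO replicate 4, at 129 CPM the highest by far in its group, it was -0.87 and called (adjusted p = 0.021). Relative to WT, p62 TKO was higher with that library (3.63 ± 0.41, adjusted p = 5.2e-07) and without it (3.06, adjusted p = 3.3e-07). DKO and Atg5 KO were not told apart (-0.34 ± 0.34, adjusted p = 0.41), and this difference turned to 0.25 with total counts alone.

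**Figure D2:**
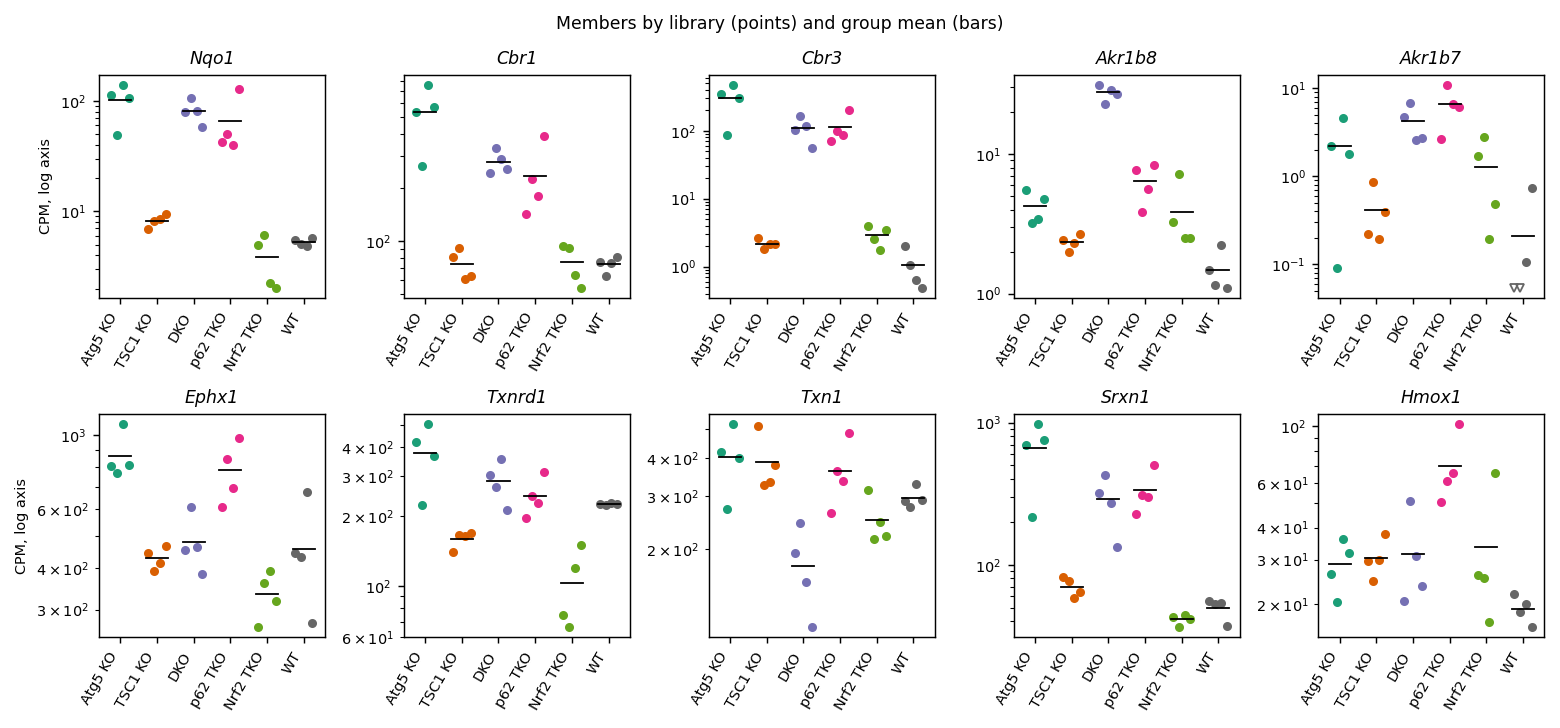
Level of each of the 10 genes (panels) in each library, in CPM on a log axis, by genotype, with points for libraries, bars for group means and open triangles for libraries at 0. Nqo1, Cbr1, Cbr3 and Srxn1 are high in Atg5 KO, DKO and p62 TKO, Akr1b8 stands apart in DKO at 23 to 31.4 CPM, Txn1 is lowest in DKO and Hmox1 is highest in p62 TKO.

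The carbonyl reductases CBR1 and CBR3 are short-chain dehydrogenases that reduce quinones and other carbonyl compounds with NADPH. Cbr3 was close to silent in WT at 2.04, 1.04, 0.635 and 0.487 CPM, the sum of 37 counts in 4 libraries. It reached 350, 85.1, 476 and 306 CPM in Atg5 KO, 102, 163, 117 and 55.3 CPM in DKO and 71.3, 98.1, 86.6 and 199 CPM in p62 TKO. TSC1 KO had 2.62, 1.8, 2.13 and 2.17 CPM and Nrf2 TKO 3.96, 2.53, 1.74 and 3.48 CPM. The lowest library of Atg5 KO, DKO and p62 TKO, at 55.3 CPM, stood far above the highest of the other 3 genotypes, at 3.96 CPM. Cbr3 rose by 8.16 ± 0.61 in Atg5 KO versus WT (adjusted p = 2.1e-08) and by 6.68 ± 0.59 in DKO versus WT (adjusted p = 3.4e-09). Nrf2 TKO was 37.4-fold lower than DKO (-5.22 ± 0.51, adjusted p = 5e-08), while p62 TKO versus DKO gave 0.06 ± 0.4 (95% interval -0.73 to 0.84, adjusted p = 0.92), which turned to -0.35 without p62 TKO replicate 4 and to -0.40 with total counts alone. The value of Nrf2 TKO against WT, 1.46 ± 0.66, missed the threshold (adjusted p = 0.085), and without WT replicate 1 it was 2.03 (adjusted p = 0.046).

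Cbr1 was expressed in WT at 63.8 to 81.4 CPM. It ranged from 264 to 761 CPM in Atg5 KO, from 61.1 to 91.2 CPM in TSC1 KO, from 242 to 335 CPM in DKO, from 141 to 390 CPM in p62 TKO and from 54.4 to 93.3 CPM in Nrf2 TKO. It thus followed its neighbour in which genotypes were high, with smaller folds. Cbr1 rose in Atg5 KO versus WT (2.85 ± 0.3, adjusted p = 5.7e-07) and in DKO versus WT (1.92 ± 0.29, adjusted p = 3.7e-06). It was lower in Nrf2 TKO than in DKO (-1.88 ± 0.29, adjusted p = 8.8e-06), and Nrf2 TKO versus WT gave 0.03 ± 0.28 (95% interval -0.51 to 0.58). In p62 TKO versus DKO it did not pass the test with replicate 4 (-0.26 ± 0.28, adjusted p = 0.47) or without it (-0.62, adjusted p = 0.059), and it was above WT both with it (1.66 ± 0.29, adjusted p = 5.8e-05) and without it (1.29, adjusted p = 0.00031).

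The balance between the 2 carbonyl reductases changed with genotype. This ratio was chosen after the values were seen and is given as a description. Per exon length, Cbr3 over Cbr1 was 1.33, 0.656, 1.27 and 1.09 in Atg5 KO, 0.862, 0.993, 0.825 and 0.441 in DKO, and 1.03, 0.896, 0.979 and 1.04 in p62 TKO. It was 0.0656, 0.0402, 0.0709 and 0.0699 in TSC1 KO, 0.0865, 0.0561, 0.0555 and 0.13 in Nrf2 TKO, and 0.0546, 0.0332, 0.0173 and 0.0122 in WT. Per exon length the 2 transcripts were therefore closer in level in the 3 genotypes with both Atg5 loss and NRF2, and Cbr1 predominated in the remaining 3. The size of the ratio depends on the exon lengths used, 2554 bases for Cbr1 and 1254 bases for Cbr3, while its differences between genotypes do not. The ratio is taken within a library, so no scaling of totals enters it, and it shows unequal change only.

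**Figure D3:**
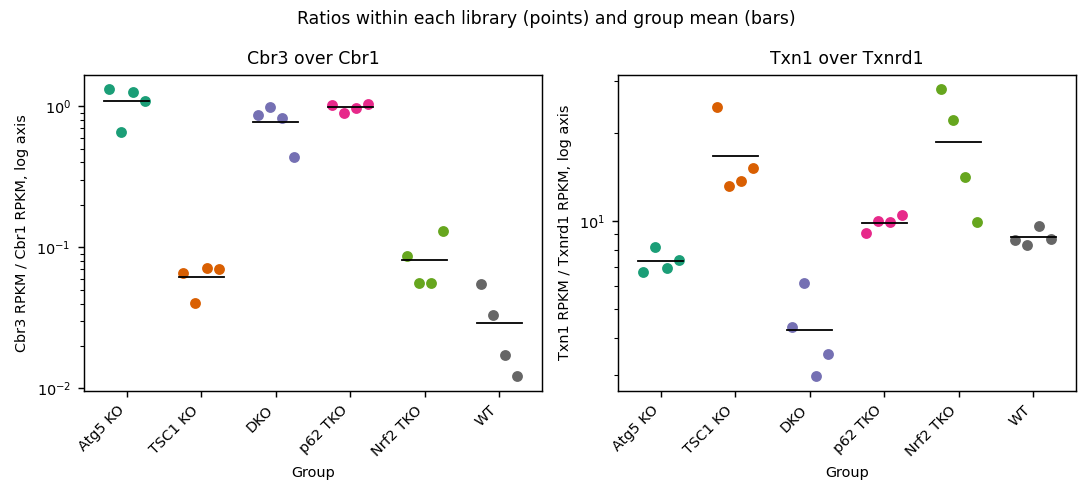
Ratio of RPKM within each library, on a log axis, by genotype, for Cbr3 over Cbr1 (left) and Txn1 over Txnrd1 (right), with points for libraries and bars for group means. Cbr3 over Cbr1 lies between 0.441 and 1.33 in Atg5 KO, DKO and p62 TKO and at or below 0.13 in TSC1 KO, Nrf2 TKO and WT, and Txn1 over Txnrd1 is lowest in DKO, at 2.96 to 6.14.

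The aldo-keto reductases of this group reduce aldehydes, among them products of lipid peroxidation, and Akr1b8 had its highest level in DKO. It had 5.49, 3.23, 3.42 and 4.78 CPM in Atg5 KO, 2.41, 1.99, 2.32 and 2.66 CPM in TSC1 KO and 31.4, 23, 29 and 27.1 CPM in DKO. It had 7.72, 3.84, 5.59 and 8.33 CPM in p62 TKO, 3.27, 7.14, 2.52 and 2.51 CPM in Nrf2 TKO and 1.47, 1.16, 2.22 and 1.1 CPM in WT. The 4 DKO libraries stood above all 20 others. Akr1b8 was 18.3-fold higher in DKO than in WT (4.19 ± 0.33, adjusted p = 1.7e-10) and 6.5-fold higher than in Atg5 KO (2.70 ± 0.29, adjusted p = 4.9e-08), where it was also above WT (1.49 ± 0.34, adjusted p = 0.0018). Both triple knockouts were lower than DKO, p62 TKO by 4.32-fold (-2.11 ± 0.28, adjusted p = 2.9e-06; -2.26 without replicate 4, adjusted p = 7.1e-06) and Nrf2 TKO by 7.04-fold (-2.81 ± 0.29, adjusted p = 4e-08). Akr1b8 was the only member called lower in both with all libraries and TMM; Nqo1 also was without p62 TKO replicate 4, and Txnrd1 with total counts alone. The 2 triple knockouts were not told apart (p62 TKO versus Nrf2 TKO 0.70 ± 0.29, adjusted p = 0.096), a value that was called without Nrf2 TKO replicate 2 (1.21, adjusted p = 0.003) and without p62 TKO replicate 2 (0.85, adjusted p = 0.044). Akr1b8 remained above WT in p62 TKO (2.08 ± 0.33, adjusted p = 1.9e-05; 1.93 without replicate 4, adjusted p = 0.00011) and in Nrf2 TKO (1.38 ± 0.34, adjusted p = 0.0027), where it was the 1 member called higher. The summed cholangiocyte markers were also highest in DKO and lowest in WT, with 6900 to 10200 CPM in DKO, 2450 to 3690 CPM in p62 TKO, 1640 to 2920 CPM in Nrf2 TKO, 484 to 1150 CPM in Atg5 KO, 588 to 979 CPM in TSC1 KO and 79.4 to 118 CPM in WT, and none of the 10 markers was at 0 in any genotype. The marker Spp1 made up most of these sums in every genotype, with a mean of 7400 ± 1440 CPM in DKO and 68.6 ± 12.2 CPM in WT. The part of the cholangiocyte markers in the Akr1b8 result was not tested.

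Akr1b7, best known in the mouse from the adrenal cortex and the vas deferens, was scarce in liver. It had 82, 116, 49 and 54 counts in DKO, 37, 122, 90 and 79 for p62 TKO, 17, 37, 2 and 5 for Nrf2 TKO, 29, 1, 58 and 22 in Atg5 KO, and 2, 9, 2 and 4 in TSC1 KO. WT had 0, 0, 1 and 6 counts, so folds against WT rest on 7 counts. It was called higher in DKO versus WT (4.31 ± 0.97, adjusted p = 0.00048; 6.48 without WT replicate 4), in p62 TKO versus WT (4.96 ± 0.97, adjusted p = 0.00022; 7.15 without WT replicate 4 and 4.99 without p62 TKO replicate 4) and in Atg5 KO versus WT (3.38 ± 1.01, adjusted p = 0.015). The last call ended without Atg5 KO replicate 3 (2.72, adjusted p = 0.064), the value was 5.57 without WT replicate 4, and 1 Atg5 KO library stood within the WT range. In Nrf2 TKO versus DKO the value of -1.66 ± 0.72 missed the threshold (adjusted p = 0.054), and passed it without Nrf2 TKO replicate 2 (-2.40, adjusted p = 0.018) and with total counts alone (-2.25, adjusted p = 0.011). The call in p62 TKO versus Nrf2 TKO (2.31 ± 0.73, adjusted p = 0.031) was lost in 6 of 8 fits that left out 1 library, among them that without p62 TKO replicate 4 (2.34, adjusted p = 0.052). The adrenal markers Cyp21a1 and Star averaged 0.235 ± 0.0856 and 4.36 ± 0.7 CPM in DKO and 6.42 ± 4.56 and 3.55 ± 0.804 CPM in WT (SD, n = 4), and no adrenal marker measured was at 0 in DKO, while Nr5a1 was at 0 in Atg5 KO, TSC1 KO, p62 TKO and WT.

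Ephx1, the microsomal epoxide hydrolase gene, was abundant in every genotype. It ranged from 771 to 1080 CPM in Atg5 KO, 391 to 466 CPM in TSC1 KO, 385 to 609 CPM in DKO, 611 to 983 CPM in p62 TKO, 266 to 393 CPM in Nrf2 TKO and 273 to 674 CPM in WT. The groups lay closer together than those of Nqo1, Cbr3 or Srxn1, and the WT libraries spread widely. Ephx1 rose in Atg5 KO versus WT (0.93 ± 0.21, adjusted p = 0.0021) but not in DKO versus WT (0.07 ± 0.21, 95% interval -0.35 to 0.48, adjusted p = 0.79), where total counts alone gave 1.04 and a call (adjusted p = 0.00021). p62 TKO stood above DKO (0.72 ± 0.21, adjusted p = 0.0083; 0.59 without p62 TKO replicate 4, adjusted p = 0.037), a call that total counts alone ended (0.25, adjusted p = 0.34). In Nrf2 TKO versus DKO it was lower by a small step (-0.51 ± 0.21, adjusted p = 0.043), and this call was lost in 7 of 8 fits that left out 1 library (-0.60 to -0.35) and in the fit of those 2 genotypes alone (-0.44, adjusted p = 0.085). The 4 p62 TKO libraries stood above the 4 Nrf2 TKO libraries (1.23 ± 0.21, adjusted p = 0.00042; 1.10 without p62 TKO replicate 4, adjusted p = 0.0024). Relative to WT the value in p62 TKO was 0.78 ± 0.21 (adjusted p = 0.0038; 0.66 without replicate 4, adjusted p = 0.019), with overlap of the libraries.

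In the thioredoxin system Srxn1 was high in the same 3 genotypes as Nqo1. Sulfiredoxin restores peroxiredoxins that hydrogen peroxide has overoxidised. Srxn1 had 692, 215, 978 and 752 CPM in Atg5 KO, 81.6, 76.2, 58.2 and 64 CPM in TSC1 KO and 319, 431, 274 and 133 CPM in DKO. It had 228, 312, 298 and 506 CPM in p62 TKO, 42.8, 36.4, 44.1 and 41.4 CPM in Nrf2 TKO and 55.5, 52.8, 54.2 and 37 CPM in WT. The lowest library of Atg5 KO, DKO and p62 TKO, at 133 CPM, lay above the highest of the other 3 genotypes, at 81.6 CPM. Srxn1 rose in Atg5 KO versus WT (3.72 ± 0.38, adjusted p = 5.2e-07) and in DKO versus WT (2.53 ± 0.36, adjusted p = 2.1e-06), and Nrf2 TKO was 7.03-fold lower than DKO (-2.81 ± 0.36, adjusted p = 1.3e-06). Nrf2 TKO and WT were not told apart (-0.28 ± 0.35, 95% interval -0.96 to 0.4, turned to 0.03 with total counts alone). In p62 TKO versus DKO the value was 0.22 ± 0.34 (95% interval -0.45 to 0.88, adjusted p = 0.63), which turned to -0.05 without p62 TKO replicate 4 and to -0.24 with total counts alone, and p62 TKO stood above WT with that library (2.75 ± 0.36, adjusted p = 3e-06) and without it (2.49, adjusted p = 1.4e-05). The Srxn1 window printed above holds both core spellings, while that of Cbr3, with larger folds in the same direction, holds neither.

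Txnrd1 encodes the cytosolic thioredoxin reductase, a selenoprotein. It had 422, 224, 504 and 366 CPM in Atg5 KO, 140, 167, 164 and 169 CPM in TSC1 KO and 302, 268, 356 and 213 CPM in DKO. It had 196, 245, 228 and 312 CPM in p62 TKO, 75, 66.2, 119 and 150 CPM in Nrf2 TKO and 226, 225, 229 and 226 CPM in WT. The WT libraries spanned only 225 to 229 CPM, and every Nrf2 TKO library lay below every WT and DKO library. Every TSC1 KO library also lay below every WT library, without a call (-0.50 ± 0.23, adjusted p = 0.14). Txnrd1 was the 1 member called lower in Nrf2 TKO than in WT (-1.14 ± 0.23, adjusted p = 0.00057), and it fell in Nrf2 TKO versus DKO by 1.48 ± 0.23 (adjusted p = 1.3e-05). Its rise in Atg5 KO versus WT (0.74 ± 0.23, adjusted p = 0.018) lost the call without Atg5 KO replicate 1 (0.69, adjusted p = 0.052) or replicate 3 (0.57, adjusted p = 0.082). In DKO versus WT the value of 0.33 ± 0.23 was not called (adjusted p = 0.21), and total counts alone gave 1.33 (adjusted p = 2e-05). The p62 TKO values were -0.22 ± 0.23 against DKO (-0.35 without replicate 4) and 0.12 ± 0.23 against WT (-0.02 without replicate 4), none of them called with TMM. Total counts alone called both, at -0.68 against DKO (adjusted p = 0.016) and 0.65 against WT (adjusted p = 0.02). Against Nrf2 TKO, p62 TKO was higher (1.26 ± 0.23, adjusted p = 0.00076; 1.12 without p62 TKO replicate 4, adjusted p = 0.004).

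Txn1, the gene of cytosolic thioredoxin, was the 1 member called lower in DKO than in WT. It had 419, 271, 518 and 400 CPM in Atg5 KO, 509, 327, 334 and 379 CPM in TSC1 KO and 194, 244, 156 and 111 CPM in DKO. It had 264, 364, 336 and 484 CPM in p62 TKO, 314, 217, 247 and 221 CPM in Nrf2 TKO and 288, 276, 328 and 291 CPM in WT. All 4 DKO libraries lay below all 4 WT, Atg5 KO, TSC1 KO and p62 TKO libraries. With TMM, Txn1 fell in DKO versus WT by 0.75 ± 0.22 (adjusted p = 0.0052), but with total counts alone this turned to 0.24 (adjusted p = 0.34). It was lower in DKO than in Atg5 KO (-1.19 ± 0.23, adjusted p = 0.0001) and than in TSC1 KO (-1.14 ± 0.23, adjusted p = 0.00012), and the call against TSC1 KO ended with total counts alone (-0.27, adjusted p = 0.28). p62 TKO was 2.05-fold higher than DKO (1.04 ± 0.22, adjusted p = 0.00069; 0.87 without replicate 4, adjusted p = 0.0044). Nrf2 TKO versus DKO gave 0.50 ± 0.22 (adjusted p = 0.06), which was called in 3 of 8 fits that left out 1 library and turned to -0.16 with total counts alone. With TMM neither triple knockout was told apart from WT, with values of 0.29 ± 0.22 in p62 TKO (0.12 without replicate 4; 0.82 with total counts alone, adjusted p = 0.0043) and -0.24 ± 0.22 in Nrf2 TKO (0.08 with total counts alone). The 10 hepatocyte markers had median log2 fold changes of -2.88 in DKO versus WT and 1.49 in p62 TKO versus DKO, where Txn1 had the same signs. Their medians were 2.74 in Nrf2 TKO versus DKO, where Txn1 was not called, and -0.76 in Atg5 KO versus WT and -0.28 in TSC1 KO versus WT, where Txn1 had 0.44 and 0.39, neither called. Their part in the Txn1 result was not tested.

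Measured within a library, thioredoxin and its reductase shifted against each other. This ratio, too, was chosen after the values were seen. Per exon length, Txn1 over Txnrd1 was 6.7, 8.17, 6.93 and 7.37 in Atg5 KO, 24.5, 13.2, 13.7 and 15.2 in TSC1 KO, and 4.34, 6.14, 2.96 and 3.52 in DKO. It was 9.1, 10, 9.94 and 10.5 for p62 TKO, 28.2, 22.1, 14.1 and 9.94 for Nrf2 TKO, and 8.6, 8.28, 9.64 and 8.69 for WT. The 4 DKO libraries had the 4 lowest ratios of the 24, and every TSC1 KO and Nrf2 TKO library lay above every WT library. The ratio is free of the scaling that decides the direction of Txn1 alone.

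Hmox1 encodes the inducible haem oxygenase, which opens the haem ring to biliverdin, carbon monoxide and iron, and which resident macrophages express strongly. It had 26.4, 20.5, 36.2 and 31.7 CPM in Atg5 KO, 29.6, 24.8, 29.9 and 37.8 CPM in TSC1 KO and 20.7, 50.8, 31.1 and 23.7 CPM in DKO. It had 50.5, 60.8, 65.6 and 102 CPM in p62 TKO, 26, 25.4, 17 and 65.8 CPM in Nrf2 TKO and 21.9, 18.6, 20 and 16.3 CPM in WT. The p62 TKO libraries were high as a group, and the Nrf2 TKO group held 1 library at 65.8 CPM beside 3 at 17 to 26 CPM. That library, Nrf2 TKO replicate 4, also had the most Sqstm1 of its group, 975 CPM against 535 to 575 CPM in the other 3. Hmox1 was higher in p62 TKO than in WT (1.86 ± 0.34, adjusted p = 0.00015; 1.62 without replicate 4, adjusted p = 0.00085). It was also higher than in DKO, with overlap of the libraries (1.14 ± 0.33, adjusted p = 0.0077; 0.90 without replicate 4, adjusted p = 0.038), a call that total counts alone ended (0.69, adjusted p = 0.083). The call in p62 TKO versus Nrf2 TKO (1.06 ± 0.33, adjusted p = 0.032) was lost in 5 of 8 fits that left out 1 library, among them that without p62 TKO replicate 4 (0.82, adjusted p = 0.12). Nrf2 TKO was not told apart from DKO (0.09 ± 0.33, 95% interval -0.56 to 0.73, turned to -0.59 with total counts alone). In DKO versus WT the value of 0.72 ± 0.34 missed the threshold (adjusted p = 0.066), while DESeq2 (0.72, adjusted p = 0.046) and the fits without DKO replicate 1 (0.88, adjusted p = 0.035) and replicate 4 (0.84, adjusted p = 0.049) called it. Total counts alone called it too, at 1.70 (adjusted p = 0.00014). The 12 markers of macrophages and Kupffer cells summed to 554 to 857 CPM in p62 TKO, 341 to 538 CPM in DKO, 211 to 291 CPM in Nrf2 TKO, 304 to 854 CPM in Atg5 KO, 68.9 to 170 CPM in TSC1 KO and 242 to 401 CPM in WT. In p62 TKO versus DKO 5 of the 12 rose and 0 fell (median 0.55), against 22.3% and 21.5% of all genes. The 5 were Timd4, Cd5l, Clec4f, Vsig4 and Marco, and the rest of the list was not called. In DKO versus WT those same 5 fell and 5 others rose, Csf1r, Cd68, C1qb, C1qa and C1qc, against 32.3% and 37.1% of all genes. None of the 12 was at 0 in any genotype. The part of these markers in the Hmox1 result was not tested.

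**Figure D4:**
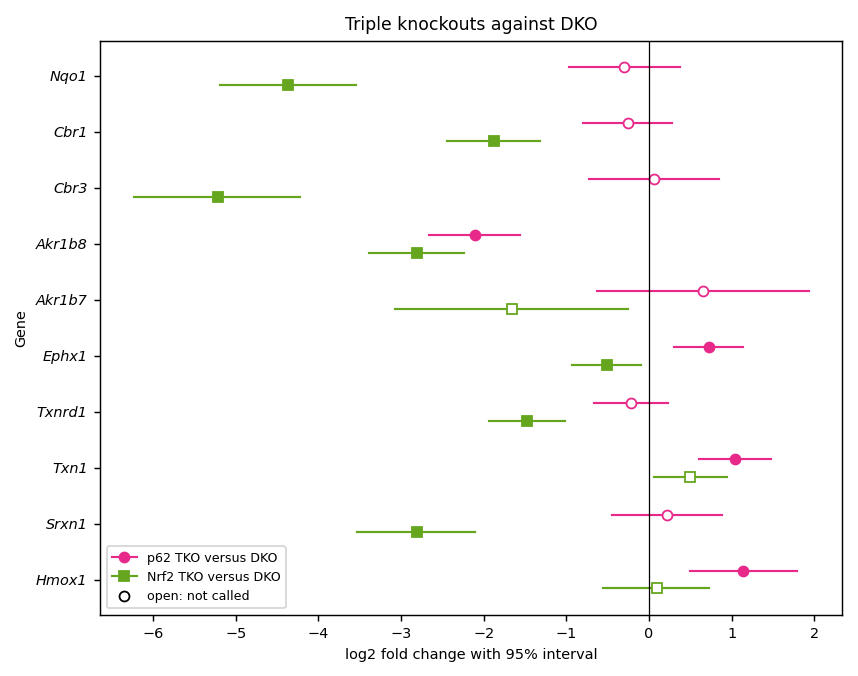
Log2 fold change of each gene (rows) in p62 TKO versus DKO (circles) and Nrf2 TKO versus DKO (squares), with 95% intervals and open symbols where the adjusted p was 0.05 or more. Nrf2 TKO is called lower for Nqo1, Cbr1, Cbr3, Akr1b8, Ephx1, Txnrd1 and Srxn1, and lies left of zero without a call for Akr1b7. The interval of p62 TKO crosses zero for Nqo1, Cbr1, Cbr3, Akr1b7, Txnrd1 and Srxn1, and p62 TKO is called lower for Akr1b8.

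Whether the second loss changed the effect of the first was tested as an interaction, the change of DKO versus TSC1 KO less that of Atg5 KO versus WT, which share no library. Among the 10 genes 1 was called higher and 4 lower, against 15.5% and 19.3% of all genes. Akr1b8 was the positive one, with 3.55 ± 0.31 in DKO versus TSC1 KO and 1.49 ± 0.34 in Atg5 KO versus WT (difference 2.06 ± 0.46, adjusted p = 0.0012). Cbr3 rose by 5.65 ± 0.53 in DKO versus TSC1 KO and by 8.16 ± 0.61 in Atg5 KO versus WT (difference -2.51 ± 0.8, adjusted p = 0.019), a difference of -3.12 without WT replicate 1. Srxn1 rose by 2.05 ± 0.35 in DKO versus TSC1 KO and by 3.72 ± 0.38 in Atg5 KO versus WT (difference -1.68 ± 0.49, adjusted p = 0.01; -1.22 with total counts alone, adjusted p = 0.056). Txn1 fell by 1.14 ± 0.23 in DKO versus TSC1 KO and had 0.44 ± 0.22 in Atg5 KO versus WT (difference -1.58 ± 0.32, adjusted p = 0.00047). For Ephx1 the values were 0.16 ± 0.21 and 0.93 ± 0.21 (difference -0.77 ± 0.3, adjusted p = 0.048), a call lost in 11 of 16 fits that left out 1 library (-1.08 to -0.65). Total counts alone also ended that call (-0.27, adjusted p = 0.51). For Nqo1 and Cbr1 the differences of -0.99 ± 0.54 and -0.93 ± 0.39 did not pass (adjusted p = 0.17 and 0.071), and that of Cbr1 did without Atg5 KO replicate 2 (-1.21, adjusted p = 0.011). Txnrd1 and Hmox1 had differences of 0.09 ± 0.33 and -0.53 ± 0.48, and Akr1b7 one of -0.10 ± 1.11, which turned to 0.36 with total counts alone. Directly compared, DKO had 1 member higher than Atg5 KO, Akr1b8, and 5 lower, Cbr1, Cbr3, Ephx1, Txn1 and Srxn1, where 29.2% of all genes were called higher and 27.3% lower. With total counts alone 1 was higher and 1 lower.

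**Figure D5:**
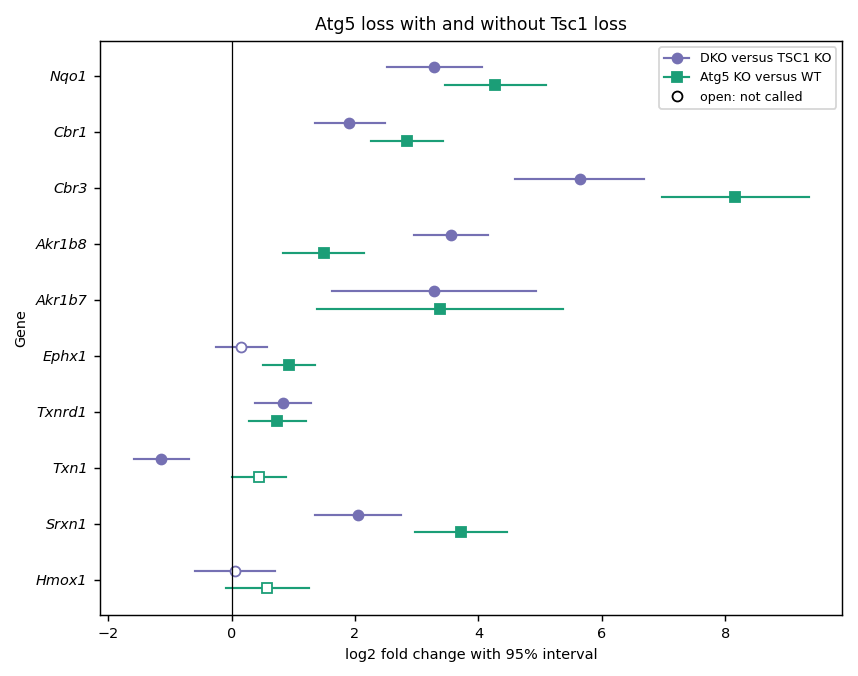
Log2 fold change of each gene (rows) on loss of Atg5 in livers that also lack Tsc1 (DKO versus TSC1 KO, circles) and in livers with Tsc1 (Atg5 KO versus WT, squares), with 95% intervals and open symbols where the adjusted p was 0.05 or more. Cbr3 and Srxn1 lie further right in Atg5 KO versus WT, Akr1b8 lies further right in DKO versus TSC1 KO, and Txn1 lies left of zero in DKO versus TSC1 KO only.

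Per exon length the order of the 10 genes differed between genotypes. Txn1 and Ephx1 were the most abundant 2 everywhere, at 281 ± 21.2 and 234 ± 84.6 RPKM in WT, where their values overlap within 1 SD. In WT they were followed by Txnrd1 at 31.9 ± 0.259 and Cbr1 at 29.0 ± 2.9 RPKM, which also overlap, then Srxn1 at 17.7 ± 3.06, Hmox1 at 11 ± 1.34, Nqo1 at 3.40 ± 0.245, Akr1b8 at 0.992 ± 0.346, Cbr3 at 0.838 ± 0.559 and Akr1b7 at 0.163 ± 0.274 RPKM (SD, n = 4). Akr1b8 and Cbr3 were not separable in WT. In Atg5 KO the next gene after Ephx1 and Txn1 was Cbr3 at 242 ± 130 RPKM, within 1 SD of Srxn1 at 234 ± 114 and Cbr1 at 209 ± 80.1 RPKM, and above Nqo1 at 65.7 ± 24.7 and Txnrd1 at 53.5 ± 16.7 RPKM. In DKO the corresponding levels were 87.2 ± 35.4 RPKM for Cbr3, 103 ± 43.7 for Srxn1, 110 ± 16.2 for Cbr1, 51.9 ± 12.5 for Nqo1 and 40.2 ± 8.47 RPKM for Txnrd1, and Akr1b8 and Hmox1 were level at 18.4 ± 2.37 and 18 ± 7.73 RPKM. In Nrf2 TKO Txn1 was at 238 ± 42.9 and Ephx1 at 171 ± 28.1 RPKM, and Nqo1, Cbr3 and Akr1b8 lay together at 2.46 ± 1.3, 2.33 ± 0.788 and 2.57 ± 1.48 RPKM.

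Single libraries moved many of the genes at once. Atg5 KO replicate 2 had the lowest level of its group for 10 of 10 genes and Atg5 KO replicate 3 the highest for 9, so that the summed CPM of the set was 1900 in replicate 2 and 4500 in replicate 3. Without Atg5 KO replicate 2, 9 of the 10 genes were called higher than in WT, Txn1 now among them (0.59, adjusted p = 0.048). That library also had the highest hepatocyte marker sum of its group, 120000 CPM, against 53000 to 66800 CPM in the other 3, the lowest cholangiocyte sum, 484 against 699 to 1150 CPM, and the lowest macrophage sum, 304 against 649 to 854 CPM. In p62 TKO, replicate 4 was highest for 9 of 10 genes (summed CPM 3120, against 1610 to 2220 in the other 3) and was also the library with the most Sqstm1. DKO replicate 2 was highest for 8 genes and DKO replicate 4 lowest for 6. The summed level was narrowest in Nrf2 TKO, at 815 to 891 CPM, below the 933 to 1390 CPM of WT. The part of these markers and of Sqstm1 in these differences was not tested.

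Related genes outside the set were read from lists of their families. In DKO versus WT 37.1% of all genes were called higher and 32.3% lower. With total counts alone 11158 of the 15851 genes were called higher and 1767 lower. Among 15 tested of 18 other carbonyl and aldo-keto reductases, 2 rose and 11 fell in DKO versus WT (5 and 7 with total counts alone), with a median of -1.25 that total counts alone moved to -0.27. The steroid-metabolising Akr1c6 averaged 55.0 ± 35.2 CPM in DKO and 1290 ± 196 CPM in WT (-4.56 ± 0.45, adjusted p = 7.7e-09), Akr1c14 60.3 ± 16.2 and 488 ± 153 CPM (-3.02 ± 0.25, adjusted p = 3.6e-10), and Dhrs4, a peroxisomal carbonyl reductase, 44.5 ± 4.4 and 181 ± 9.87 CPM (-2.03 ± 0.15, adjusted p = 7.1e-11). These decreases held with total counts alone (-3.58, -2.05 and -1.04). Among 16 other thioredoxin system genes 4 rose and 9 fell in DKO versus WT, but with total counts alone 7 rose and 4 fell and the median was 0.21, against -0.78 with TMM. The methionine sulfoxide reductase gene Msra fell (-1.88 ± 0.17, adjusted p = 1e-09; -0.89 with total counts), as did the mitochondrial thioredoxin gene Txn2 (-1.23 ± 0.12, adjusted p = 5.7e-09; -0.23 with total counts), and the peroxiredoxin gene Prdx1 had -0.72 ± 0.17 (adjusted p = 0.00056), which turned to 0.27 with total counts. Of the 10 other quinone reductases 4 rose and 4 fell (6 and 1 with total counts alone), of 10 other haem genes 3 rose and 5 fell (5 and 3), of 9 genes of NRF2 control 4 rose and 3 fell (8 and 0), and of 2 other tested epoxide hydrolases 0 rose and 1, Ephx2, fell (1 and 1). Beyond the families' leading genes, several were chosen after their values were seen. Gsr, the glutathione reductase gene, averaged 247 ± 71.5 CPM in Atg5 KO, 245 ± 24.6 CPM in DKO, 79 ± 11 CPM in Nrf2 TKO and 117 ± 20.1 CPM in WT, and Slc48a1, a haem transporter gene, averaged 181 ± 62.2, 137 ± 17.6, 36.1 ± 4.35 and 55.0 ± 4.34 CPM in the same 4 groups. The biliverdin reductase gene Blvrb fell in Nrf2 TKO versus DKO (-1.47 ± 0.31, adjusted p = 0.0004), as did Gsr (-1.63 ± 0.21, adjusted p = 7.2e-07) and Slc48a1 (-1.92 ± 0.22, adjusted p = 1.3e-07). In that comparison 9 of 16 thioredoxin system genes were called higher and 2 lower, 6 of 10 haem genes higher and 3 lower, 9 of 15 carbonyl and aldo-keto reductases higher and 3 lower, 3 of 10 quinone reductases higher and 3 lower, and 1 of 9 genes of NRF2 control higher and 3 lower. Of all genes, 26.7% were called higher and 29.2% lower there. Ptgr1, a reductase of prostaglandins and alkenals, and Akr1b10 were highest in DKO, as Akr1b8 was. Ptgr1 averaged 98.9 ± 17.5 CPM in DKO, 20.6 ± 9.7 in Atg5 KO, 15.3 ± 1.29 in TSC1 KO, 24.3 ± 5.16 in Nrf2 TKO and 4.74 ± 0.715 CPM in WT, and it was called higher in TSC1 KO than in WT (1.69, adjusted p = 0.00051). Akr1b10 averaged 11.4 ± 1.71 CPM in DKO, 4.79 ± 1.73 in Atg5 KO, 1.59 ± 0.243 in TSC1 KO, 4.49 ± 1.45 in Nrf2 TKO and 1.42 ± 0.213 CPM in WT (SD, n = 4). Both were lower in Nrf2 TKO than in DKO (-2.02 ± 0.26, adjusted p = 8.8e-07 for Ptgr1 and -1.34 ± 0.25, adjusted p = 0.0001 for Akr1b10). With replicate 4 included, p62 TKO was also lower than DKO (-1.24 ± 0.25, adjusted p = 0.00037 for Ptgr1 and -1.14 ± 0.25, adjusted p = 0.00075 for Akr1b10). In Nrf2 TKO both genes remained above WT (2.36 ± 0.29, adjusted p = 3.1e-06 for Ptgr1 and 1.66 ± 0.29, adjusted p = 0.00014 for Akr1b10).

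The genes nearest to each member, other members left out, were found over 10286 genes by the root mean square difference of the 6 group means of log2 CPM, each centred on the gene's own mean. Pgd, a pentose phosphate pathway enzyme that yields NADPH, was near both Cbr1 (0.258) and Srxn1 (0.355), at 385 ± 163 CPM in Atg5 KO, 275 ± 57.5 in DKO, 236 ± 79.8 in p62 TKO, 46.9 ± 7.94 in Nrf2 TKO and 59.3 ± 4.71 CPM in WT. Outside the set, the other near gene of Cbr1 was Hcls1 (0.195) and that of Srxn1 Mx1 (0.473), while Cbr1 and Srxn1 themselves were 0.47 apart. Cbr3 was nearest to Apela (0.466) and the glutamate transporter gene Slc1a1 (0.519). In WT, TSC1 KO and Nrf2 TKO, Apela summed to 0, 1 and 4 counts and Slc1a1 to 2, 15 and 11. Those levels lay near the floor, which limits this match. Nqo1 was nearest to Sfn (0.661) and Scn8a (0.663), both farther from it than the member Srxn1 (0.572). For Akr1b8 they were Timp3 (0.151) and the cell adhesion gene Mcam (0.154), for Akr1b7 Serpinb6a (0.276) and the proliferation marker gene Mki67 (0.289), and for Ephx1 Il4ra (0.147) and Mov10 (0.16). Those of Txnrd1 were Colgalt1 (0.186) and Vcl (0.201), and those of Hmox1 Dpp7 (0.199) and Nek2 (0.209). Txn1 lay nearest to Txn-ps1 (0.0869), a processed pseudogene of thioredoxin, at 5.46 ± 2.5 CPM in DKO and 7.81 ± 0.855 CPM in WT, and to the transporter gene Slc22a18 (0.0945). No window of 75 bases was identical between Txn1 and Txn-ps1, but reads with mismatches may have been placed on either, so the value of Txn-ps1 is uncertain. These distances are descriptions over 6 groups and carry no test.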

How the data were processed

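RNA from snap-frozen liver was extracted with Trizol, and libraries were made with the NEBNext stranded kit after polyA selection and sequenced as single reads of 75 bases on a NextSeq 550, per the labels' protocols. The deposited values are raw counts per gene, and Trimmomatic 0.36, HISAT2 2.1.0, HTSeq and GRCm38 are named in the submitters' processing notes. For the HTSeq version, the strand setting and the annotation release, nothing is given in the sources used here. Symbols, coordinates and exon lengths came from GENCODE M21, which held 32953 of the 33019 gene IDs. No 2 libraries held identical values.

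From these counts, edgeR 4.0.16 (R 4.3.3) fitted 6 genotypes of 4 libraries each, with filterByExpr, TMM scaling and the robust quasi-likelihood test, leaving 15851 genes and 18 residual degrees of freedom. P-values were adjusted by Benjamini-Hochberg over all genes, and a standard error is the log2 fold change over the square root of F. The steps were tested on simulated counts of DKO and WT alone, with a small part of the genes changed, evenly up and down. Such counts do not test the choice of scaling where many genes change. Totals of 10494080 to 13057467 counts limit the precision of Akr1b7 and, in WT, Cbr3. Alternatives were DESeq2 1.42.0, its size factors, total counts alone, no filter, only the compared genotypes, a replicate block and leaving out each library.

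The 10 genes and all lists were chosen with earlier results of these data known. Besides the 10 genes, the text names the targeted genes, up to 3 genes per list with the smallest adjusted p in DKO versus WT plus the most abundant, and the nearest 2 genes of each member with a mean of at least 5 CPM. Gsr, Slc48a1, Blvrb and Akr1b10 fall outside that rule and were chosen after their values were seen.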

Additional observations from a re-analysis of the deposited data

Results flagged for a closer look

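Of 60 combinations of gene and genotype, 6 held 1 library whose gap to the nearest of the other 3 was large for the group's range, where chance gives about 1 in 20. Nqo1 was at 129 CPM in p62 TKO replicate 4, against 40 to 49.6 CPM in the other p62 TKO libraries. Akr1b8 was at 7.14 CPM in Nrf2 TKO replicate 2, against 2.51 to 3.27 CPM in the others. Ephx1 was at 1080 CPM in Atg5 KO replicate 3, against 771 to 813 CPM. Txnrd1 was at 140 CPM in TSC1 KO replicate 1, against 164 to 169 CPM. In WT replicate 4, Akr1b7 was at 0.731 CPM, which is 6 counts, against 0 to 0.106 CPM, and Srxn1 was at 37 CPM, against 52.8 to 55.5 CPM.

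For 5 genes the effect of Atg5 loss differed between livers without and with Tsc1, as the interaction tested by edgeR's quasi-likelihood fit. Of all genes, 15.5% were called higher and 19.3% lower in this interaction. The differences were 2.06 for Akr1b8, -2.51 for Cbr3, -1.58 for Txn1, -1.68 for Srxn1 and -0.77 for Ephx1 (adjusted p = 0.0012, 0.019, 0.00047, 0.01 and 0.048 in that order). The Ephx1 call was lost in 11 of 16 fits that left out 1 library. Total counts alone ended the calls of Ephx1 (-0.27, adjusted p = 0.51) and Srxn1 (-1.22, adjusted p = 0.056).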

How the results depend on the processing

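The 110 results, 10 genes in 11 comparisons, were recomputed, except that the fit of only the compared genotypes gave no value for Akr1b7 in Atg5 KO, TSC1 KO and Nrf2 TKO versus WT (107 results). All 110 kept direction and call with DESeq2's size factors, and DESeq2 kept all directions and added 6 calls. Total counts alone reversed 11, and the cause is that scaling itself: Ephx1 in TSC1 KO versus WT (0.02), Txn1 in DKO versus WT (0.24), Nqo1 (0.25) and Txnrd1 (0.19) in DKO versus Atg5 KO, Cbr3 (-0.40) and Srxn1 (-0.24) in p62 TKO versus DKO, Txn1 (-0.16) and Hmox1 (-0.59) in Nrf2 TKO versus DKO, Txn1 (0.08) and Srxn1 (0.03) in Nrf2 TKO versus WT, and Akr1b7 in the interaction (0.36). It left 2 members called in DKO versus Atg5 KO, 5 in Nrf2 TKO versus WT and 3 in the interaction, against 6, 2 and 5 with TMM. DESeq2 also called 5 in Nrf2 TKO versus WT, and no filter left 3 in the interaction. Fitting only the compared genotypes called 4 members in TSC1 KO versus WT, 1677 genes in p62 TKO versus Nrf2 TKO and 3691 genes in Nrf2 TKO versus WT, against 0, 2776 and 6262, and turned Hmox1 in DKO versus TSC1 KO (-0.01). Without a filter Cbr3 in p62 TKO versus DKO and Hmox1 in Nrf2 TKO versus DKO turned (both -0.01). For these the cause was not tested.

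Same-numbered libraries did not deviate together (median r of -0.0125 over 60 pairs, 7 over 0.1, and 5 of 24 libraries nearest to their own number). The replicate block kept the call and direction of 109 results and turned Hmox1 in Nrf2 TKO versus DKO (-0.01), with 4607 genes called in Atg5 KO versus WT against 4738 without the block.

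Leaving out 1 library at a time gave 960 values, of which 876 kept direction and call. Ranges that crossed zero were -0.13 to 0.10 for Cbr1 and -0.22 to 0.15 for Ephx1 in TSC1 KO versus WT, -0.11 to 0.25 for Ephx1 in DKO versus WT, -0.21 to 0.28 and -0.29 to 0.19 for Hmox1 in DKO versus Atg5 KO and versus TSC1 KO, -0.35 to 0.31 for Cbr3 and -0.05 to 0.47 for Srxn1 in p62 TKO versus DKO, -0.41 to 0.42 for Hmox1 in Nrf2 TKO versus DKO, -0.02 to 0.21 for Txnrd1 in p62 TKO versus WT, -0.09 to 0.15 for Cbr1 in Nrf2 TKO versus WT, and -2.33 to 0.56 for Akr1b7 and -0.15 to 0.25 for Txnrd1 in the interaction. Genes called in TSC1 KO versus WT ran from 1724, without WT replicate 2, to 2272, against 2598 in full, and members called in Nrf2 TKO versus WT from 2 to 4, the 4 without Nrf2 TKO replicate 3 or WT replicate 4.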
